A study of Mus musculus with 27 samples.

Results

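The elastic fiber and microfibril genes are a named set of 10 genes, Eln, Fbn1, Fbn2, Fbln1, Fbln5, Mfap4, Mfap5, Ltbp2, Adamtsl2 and Emilin1. A gene was read from its probe set on the array, a group of short probes that the array's annotation assigns to that gene symbol alone, and the brightest was taken where a gene had several. Of the 10 genes, 9 had such a probe set, 1 each, among 19938 genes measured in this way, and Fbn1 was not analysed here.

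Total RNA was collected at Day 3 from 27 mouse fibroblast cultures of a study on conversion toward induced cardiomyocytes. Each culture was read on its own Affymetrix Mouse Gene 1.0 ST chip. The study asked how the TGFβ pathway affects that conversion. The cultures formed 9 groups of 3. Adult mouse cardiac fibroblasts (CFs, grown from minced hearts and used after passaging) received HNGMT, lentiviruses for 5 cardiac transcription factors (Hand2, Nkx2.5, Gata4 and also Mef2c and Tbx5), together with 2 ng/mL TGFβ1, 5 μM SB431542 (SB) or DMSO, the vehicle. Mouse embryonic fibroblasts (MEFs, from mid-gestation embryos of mixed background without head, heart and viscera) received HNGMT with 2 ng/mL TGFβ1, 0.5 μM SB or DMSO. A further set of MEFs, called 0TF, received none of the 5 factors (the labels give an empty vector in one field and no factor treatment in another) with the same 3 additions. All 27 cultures also carried an rtTA lentivirus and a Troponin T-GCaMP reporter lentivirus, received the additions from Day -1 and received 2 μg/mL doxycycline, which switches on the factor lentiviruses, from Day 0. The study's protocol, followed for the array cultures too, also lists a nuclear mCherry lentivirus and a change to reprogramming medium at Day 0. The expression of the factors depended on which cells were transduced, CFs had no 0TF group, and the SB dose differed between CFs and MEFs. The protocol text attached to the CF cultures describes MEFs. The labels call the 3 cultures of a group independent biological replicates but do not say how many embryos or animals they came from, so p-values measure the spread between cultures.

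Elastic fibers have an amorphous elastin core that is laid down on a scaffold of fibrillin microfibrils, and they let arteries, lung, skin and heart valves recoil. Fibulins, microfibril-associated glycoproteins and emilins join the core to the scaffold, and lysyl oxidases crosslink the elastin. Microfibrils also hold latent TGFβ through the latent TGFβ binding proteins, so the scaffold and the TGFβ pathway are linked in connective tissue. TGFβ1 is the ligand, and SB blocks the kinase of the type I TGFβ, Activin and Nodal receptors.

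RefSeq promoter sequence (build GRCm38.p6) was held for 5 of the 9 measured genes, Fbln1, Fbln5, Ltbp2, Adamtsl2 and Emilin1. The stretches below lie just before the annotated gene start of the 3 of these genes that passed the test with TGFβ1 in CFs, and they are shown so that the letters of CAGAC, the motif bound by SMAD3 and SMAD4, can be seen beside those results. Capitals mark CAGAC or its reverse complement GTCTG. Fbln1 is chr15:85205699-85205948 on the plus strand, Ltbp2 is chr12:84876559-84876741 on the minus strand and Adamtsl2 is chr2:27079129-27079335 on the plus strand.
Fbln1: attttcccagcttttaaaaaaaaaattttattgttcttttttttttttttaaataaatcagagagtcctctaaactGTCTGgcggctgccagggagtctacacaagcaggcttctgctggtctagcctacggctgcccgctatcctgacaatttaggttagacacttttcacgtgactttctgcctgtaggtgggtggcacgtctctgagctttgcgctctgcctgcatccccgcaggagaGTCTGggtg
Ltbp2: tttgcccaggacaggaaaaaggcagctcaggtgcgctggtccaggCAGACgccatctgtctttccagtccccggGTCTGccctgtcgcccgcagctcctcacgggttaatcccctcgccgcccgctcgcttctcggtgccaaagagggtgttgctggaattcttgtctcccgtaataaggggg
Adamtsl2: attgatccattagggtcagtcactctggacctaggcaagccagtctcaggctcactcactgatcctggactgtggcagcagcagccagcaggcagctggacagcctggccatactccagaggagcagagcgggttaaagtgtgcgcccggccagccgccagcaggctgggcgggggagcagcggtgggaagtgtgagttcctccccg
The Fbln1 stretch held 2 matches and the Ltbp2 stretch 2, and no complete match lay in the Adamtsl2 stretch. RefSeq's promoter windows run from 250 bases before to 50 after a start site, which for Ltbp2 and Adamtsl2 lies further into the gene than the point where the letters stop. In these whole windows Fbln1 held 2 matches at each of its start sites, Ltbp2 held 3, and Adamtsl2 held 1 that begins at the last letter shown. Of the genes that did not pass with TGFβ1 in CFs, Emilin1 held 2 and Fbln5 1 and 2 at its 2 start sites. Among 32851 mouse promoter windows 49.6% held the motif, 16.2% held it at least 2 times and 3.9% at least 3 times. TATAAA or its reverse complement, found in 13.6% of the windows, was present in that of Adamtsl2, 30 bases before the window's start site and past the letters shown. A match of letters is not a binding site.

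The deposited values are log2 intensities, so 1 unit is a doubling. Array medians were 7.36 to 7.43 in CFs and 7.83 to 7.91 in MEFs, and for this reason each treatment was tested inside a cell type, and the levels of the 9 genes were not compared between cell types or with each other. A gene is said to have risen or fallen where limma gave an adjusted p-value under 0.05 (Benjamini-Hochberg over the 19938 genes) and a log2 change of at least 0.32 in CFs or 0.585 (1.5-fold) in MEFs, the thresholds of the study's methods. In CFs, Fbn2 read 7.02 to 7.16 in all 9 cultures, below every CF array median, and Mfap4 read 6.91 to 7.95. The deposited values hold no detection call, so whether these 2 probe sets stood above background in CFs, and whether a fall could have been read there, is not known.

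The labelled cell types were checked against marker genes, whose mean levels are set side by side with the gap between the array medians in mind. Fibroblast markers averaged 10.90 to 11.69 in CFs and 12.05 to 13.03 in MEFs. Endothelial markers averaged 9.34 to 11.03 in CFs, against 7.12 to 7.70 in MEFs, and Pecam1, which encodes an endothelial adhesion protein, averaged 11.49 with TGFβ1 and 11.73 with DMSO in CFs, against 6.99 to 7.23 in MEF cultures. The endothelial values were thus higher in CFs although the array medians were lower, and in RNA from whole cultures a change in the share of a cell type and a change in RNA per cell cannot be told apart. Replicate 3 of the CF HNGMT SB group stood apart from its group: its lowest correlation with a group-mate was 0.98, its endothelial markers averaged 9.34 against 11.03 and 11.02 in replicates 1 and 2, and its fibroblast markers averaged 11.69 against 10.93 and 10.90. Results that rest on this culture are given with and without it.

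**Figure D1:**
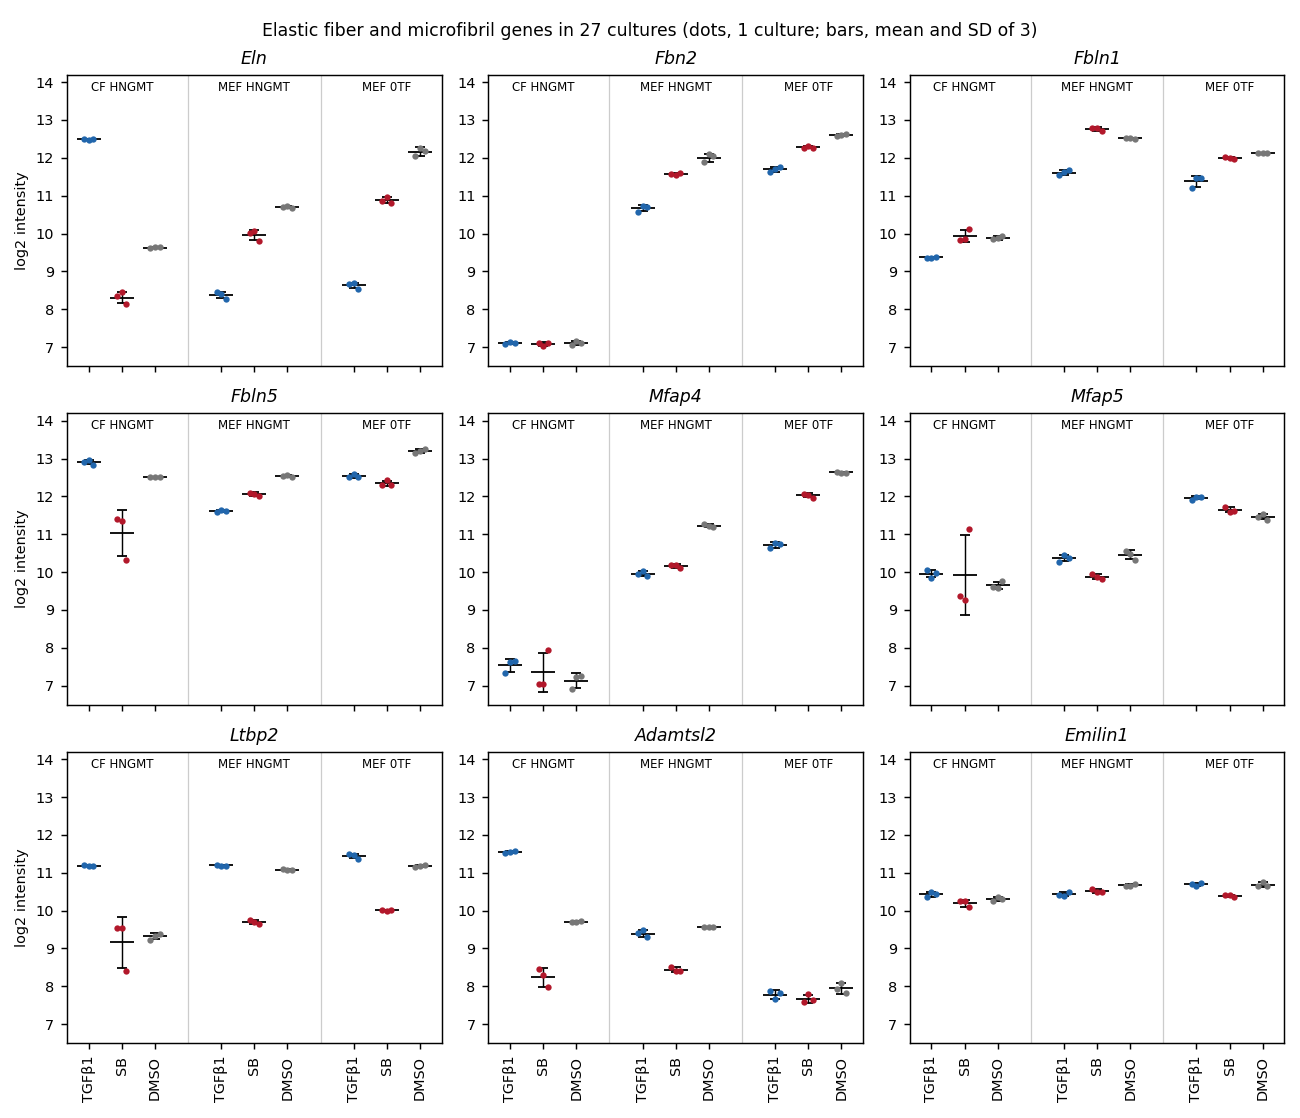
Log2 intensity (vertical axes, same range in all panels) of the 9 measured elastic fiber and microfibril genes in the 9 groups; a dot is 1 culture, the wide dash the mean and the bars the SD of 3 cultures. Eln stood at 12.48 to 12.50 with TGFβ1 in CFs, above its SB and DMSO cultures, and at 8.28 to 8.69 with TGFβ1 in MEFs, below them. Emilin1 lay between 10.09 and 10.76 in all 27 cultures.

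With TGFβ1, Eln moved in opposite directions in the 2 cell types: it rose 7.28-fold in CFs, and fell 5.00-fold in MEFs with HNGMT and 11.6-fold in 0TF MEFs. This pattern had already been noted in these data when the gene set was drawn up, and the tests below describe its size. Eln encodes tropoelastin, the soluble monomer of the elastin core. In CFs its 3 TGFβ1 cultures read 12.49, 12.48 and 12.50, against 9.61, 9.63 and 9.63 with DMSO. The groups were far apart, and the change was 2.86 on the log2 scale (SE 0.07, adjusted p = 2.2e-06). In MEFs with HNGMT, Eln read 8.45, 8.41 and 8.28 with TGFβ1, against 10.70, 10.72 and 10.67 with DMSO, a log2 change of -2.32 (SE 0.07, adjusted p = 1.2e-13). In 0TF MEFs it read 8.66, 8.69 and 8.54 with TGFβ1, against 12.04, 12.27 and 12.19 with DMSO, a log2 change of -3.54 (SE 0.07, adjusted p = 5.6e-17). No TGFβ1 culture overlapped a DMSO culture in any of the 3 backgrounds. The difference between the TGFβ1 effects in CFs and in MEFs with HNGMT, tested directly, was 5.19 on the log2 scale (SE 0.10, adjusted p = 3.4e-19).

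Eln fell with SB, the receptor kinase inhibitor, in all 3 backgrounds. The TGFβ1 and SB comparisons of a background share its DMSO cultures, so they are not independent of each other. In CFs, Eln read 8.34, 8.44 and 8.14 with 5 μM SB, against the DMSO values above, a log2 change of -1.32 (SE 0.07, adjusted p = 1.1e-03), which was -1.24 without replicate 3 of SB (adjusted p = 3.2e-05). With 0.5 μM SB it read 10.00, 10.07 and 9.80 in MEFs with HNGMT, a log2 change of -0.74 (adjusted p = 1.3e-06). In 0TF MEFs it read 10.86, 10.97 and 10.81 with SB, a log2 change of -1.29 (adjusted p = 2.9e-10). In CFs, then, the order of the levels was TGFβ1 above DMSO above SB, and in both MEF sets it was DMSO above SB above TGFβ1, with no overlap between neighbouring groups. Across the 6 MEF groups the levels ran, low to high, HNGMT with TGFβ1, 0TF with TGFβ1, HNGMT with SB, HNGMT with DMSO, 0TF with SB and 0TF with DMSO. HNGMT with DMSO and 0TF with SB lay closest, up to 10.72 in HNGMT with DMSO and from 10.81 in 0TF with SB, and this pair was not tested.

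**Figure D2:**
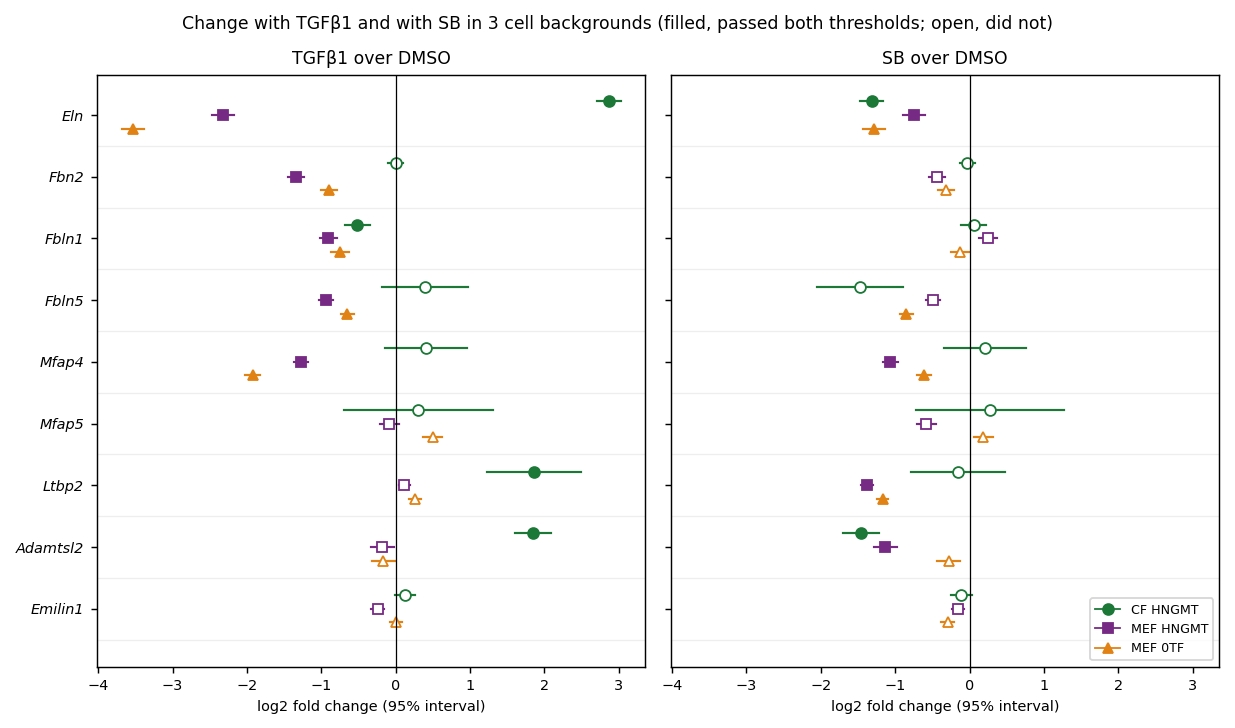
Log2 fold change of each gene with TGFβ1 over DMSO (left) and SB over DMSO (right), on the same horizontal scale, in CFs with HNGMT (circles), MEFs with HNGMT (squares) and 0TF MEFs (triangles); lines are 95% confidence intervals of the limma fit and filled symbols passed both thresholds. The Eln circle lies at 2.86 with TGFβ1 while its MEF symbols lie at -2.32 and -3.54, and with SB all 3 Eln symbols lie below 0.

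Of the 9 measured genes, 3 rose with TGFβ1 in CFs, 1 fell and 5 did not pass, while 3.11% of all genes rose, 2.2% fell and 5.32% passed in either direction. The median log2 change over the 9 genes was 0.40, against 0.00 over all genes. Beside Eln, whose change was known when the set was drawn up, the risers were Ltbp2 and Adamtsl2. Ltbp2 encodes a member of the latent TGFβ binding protein family that binds fibrillin but not latent TGFβ. It read 11.20, 11.18 and 11.17 with TGFβ1, against 9.24, 9.34 and 9.39 with DMSO, a log2 change of 1.86 (SE 0.27, adjusted p = 5.5e-03). Replicate 3 of SB lay far from its group for Ltbp2, and without it in the spread the SE was 0.04 (adjusted p = 1.7e-07). Adamtsl2 encodes a secreted glycoprotein that resembles the ADAMTS proteases but lacks their catalytic domain and binds microfibril components. It read 11.52, 11.56 and 11.57 with TGFβ1, against 9.69, 9.69 and 9.72 with DMSO, a log2 change of 1.85 (SE 0.11, adjusted p = 6.6e-05). For both genes the groups lay well over 1 unit apart, a gap many times the range within a group.

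Fbln1, which encodes fibulin-1, a glycoprotein of elastic fibers and basement membranes, was the gene that fell with TGFβ1 in CFs. It read 9.36, 9.36 and 9.38 with TGFβ1, against 9.85, 9.87 and 9.93 with DMSO, a log2 change of -0.51 (SE 0.07, adjusted p = 4.4e-03). This is a 1.43-fold change, so it passed the threshold used in CFs and would not have passed that used in MEFs. The cultures of 8 of the 9 genes did not overlap between TGFβ1 and DMSO, Fbn2 being the exception, against 32.9% of all genes.

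The remaining genes did not pass in CFs, and for Fbln5, Mfap4 and Mfap5 the pooled spread included 1 SB culture far from its group. Fbln5, whose product fibulin-5 links tropoelastin to microfibrils and to integrins, read 12.92, 12.96 and 12.84 with TGFβ1, against 12.51 in all 3 DMSO cultures, a log2 change of 0.40 (SE 0.25, adjusted p = 0.45). Mfap4, which encodes a fibrinogen-like glycoprotein found along elastic fibers, read 7.34, 7.62 and 7.65 with TGFβ1, against 6.91, 7.23 and 7.26 with DMSO, with adjusted p = 0.41. Without replicate 3 of SB, the same fit gave adjusted p = 2.2e-04 for Fbln5 and 0.034 for Mfap4, so 5 of the 9 genes rose and 1 fell, while 10.8% of all genes then passed. With the TGFβ1 and DMSO cultures alone, limma gave adjusted p = 9.2e-04 for Fbln5 at the same change, and 5 genes passed. Mfap5, which encodes a small glycoprotein that binds fibrillins, had a log2 difference of 0.31 and stayed under the fold threshold with and without replicate 3 of SB. Fbn2, the fibrillin of developing microfibrils, read 7.09, 7.13 and 7.11 with TGFβ1, against 7.05, 7.16 and 7.12 with DMSO, and Emilin1, whose product lies where elastin meets the microfibrils, differed by 0.12 (adjusted p = 0.28).

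**Figure D3:**
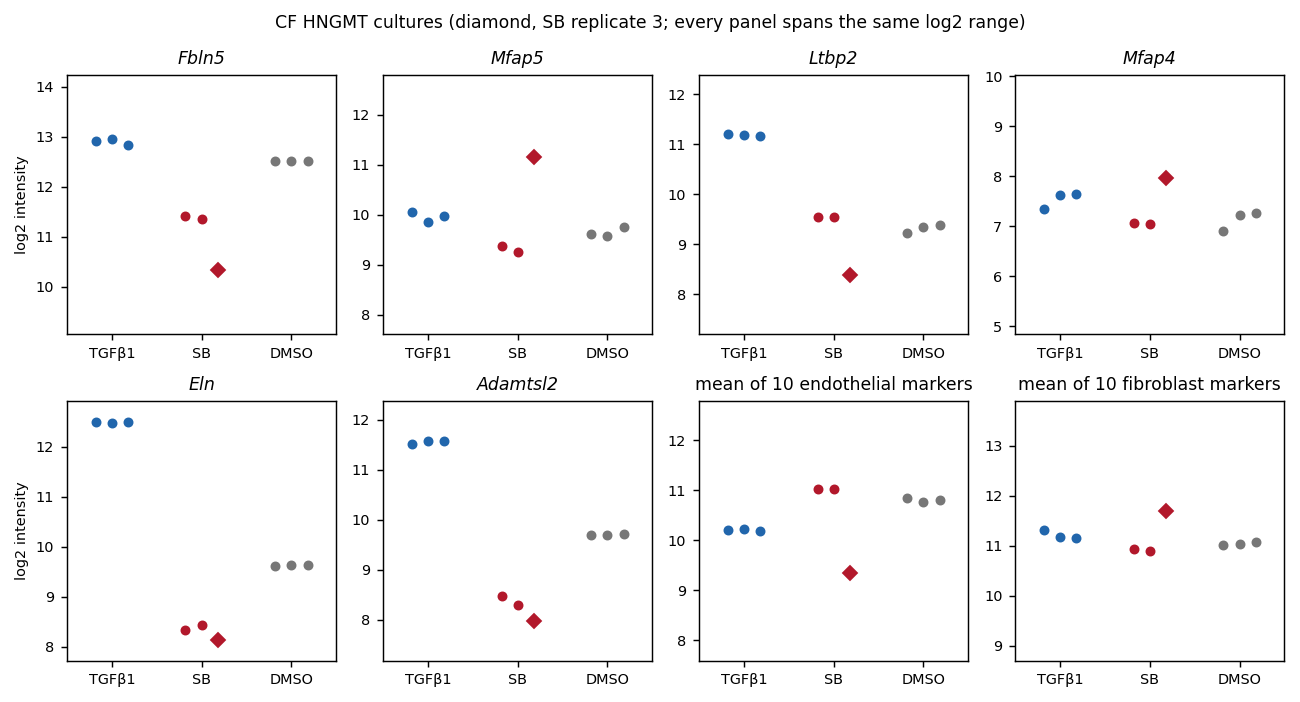
Log2 intensity of 6 genes, and the mean log2 intensity of 10 endothelial and 10 fibroblast markers, in the 9 CF cultures, which all received HNGMT; dots are cultures, the diamond is replicate 3 of SB, and each vertical axis spans the same number of log2 units. That culture lay low in Fbln5 (10.33) and Ltbp2 (8.39), high in Mfap5 (11.14) and Mfap4 (7.95), and close to its group in Eln and Adamtsl2.

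Mean levels of marker genes differed between the same CF cultures. The endothelial markers averaged 10.18 to 10.21 with TGFβ1 and 10.77 to 10.84 with DMSO, and 1 of 10 passed as lower. The smooth muscle markers averaged 10.82 to 10.83 with TGFβ1 and 10.26 to 10.30 with DMSO, and 1 of 8 passed as higher, while fibroblast markers averaged 11.16 to 11.31 with TGFβ1 and 11.01 to 11.07 with DMSO. The cardiomyocyte markers averaged 8.92 to 9.01 with TGFβ1 and 9.45 to 9.49 with DMSO, and 2 of 8 passed as lower. Without replicate 3 of SB in the spread, 6 of 10 endothelial and 4 of 8 cardiomyocyte markers passed as lower and 4 of 8 smooth muscle markers as higher. The part of these shifts in the changes of Eln, Ltbp2 and Adamtsl2 was not tested. Of 7 measured genes known to respond to TGFβ, 5 rose with TGFβ1 in CFs, among them Pmepa1 (log2 change 1.64).

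In MEFs, TGFβ1 lowered 5 of the 9 genes with HNGMT and the same 5 without it, Eln, Fbn2, Fbln1, Fbln5 and Mfap4, and none of the 9 rose. Among all genes 3.54% fell and 2.23% rose with HNGMT (5.77% in either direction), and 6.19% fell and 4.21% rose in 0TF MEFs (10.4% in either direction). The median log2 change of the 9 genes was -0.90 with HNGMT and -0.65 without, against 0.02 and 0.05 over all genes. Eln counts among the 5 and in these medians, and its fall was known when the set was drawn up, so its part is a description. Fbn2 read 10.58, 10.73 and 10.71 in MEFs with HNGMT and TGFβ1, against 11.89, 12.09 and 12.04 with HNGMT and DMSO, a log2 change of -1.34 (SE 0.05, adjusted p = 1.4e-12). In 0TF MEFs it read 11.63, 11.71 and 11.75 with TGFβ1, against 12.56, 12.61 and 12.62 with DMSO, a log2 change of -0.90 (adjusted p = 7.6e-11). The fibrillin gene thus fell in both MEF sets, and its TGFβ1 cultures lay below every DMSO culture of the same set.

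Mfap4 had the second largest fall in 0TF MEFs among the 9 genes. It read 10.63, 10.76 and 10.74 with TGFβ1, against 12.65, 12.63 and 12.63 with DMSO, a log2 change of -1.92 (adjusted p = 5.3e-16). With HNGMT it read 9.95, 10.02 and 9.89 with TGFβ1, against 11.28, 11.21 and 11.19 with DMSO, a log2 change of -1.27 (adjusted p = 7.8e-13). The fibulins fell less. Fbln5 read 11.60 to 11.63 with TGFβ1 and 12.52 to 12.58 with DMSO in MEFs carrying HNGMT (log2 change -0.93), and 12.51 to 12.60 with TGFβ1 and 13.14 to 13.25 with DMSO in 0TF MEFs, a log2 change of -0.65. Fbln1 read 11.54 to 11.67 with TGFβ1 and 12.50 to 12.52 with DMSO in MEFs carrying HNGMT (log2 change -0.90). In 0TF MEFs Fbln1 read 11.20 to 11.46 with TGFβ1 and 12.12 to 12.14 with DMSO, a log2 change of -0.75. It was the 1 gene of the set that passed as lower with TGFβ1 in all 3 backgrounds.

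The other 4 genes did not pass in MEFs. Ltbp2, which rose in CFs, read 11.21, 11.19 and 11.18 with TGFβ1, against 11.09, 11.08 and 11.07 with DMSO, in MEFs that carried HNGMT. Its log2 difference there was 0.12 (adjusted p = 0.018), far under the fold threshold, and it was 0.26 in 0TF MEFs. Adamtsl2, also a riser in CFs, differed by -0.18 with HNGMT (adjusted p = 0.068) and by -0.16 in 0TF MEFs (adjusted p = 0.078). Mfap5 differed by -0.09 with HNGMT (adjusted p = 0.31) and by 0.50 in 0TF MEFs (adjusted p = 1.8e-06, under the fold threshold). Emilin1 differed by -0.24 with HNGMT and 0.01 in 0TF MEFs. Between TGFβ1 and DMSO, the cultures of 8 genes did not overlap with HNGMT and those of 7 did not in 0TF MEFs, against 41.8% and 57.6% of all genes.

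Fibroblast markers averaged 12.05 to 12.09 with TGFβ1 and 12.50 with DMSO in MEFs with HNGMT, where 3 of 10 passed as lower, and at most 12.71 with TGFβ1 and at least 12.95 with DMSO in 0TF MEFs, where 3 of 10 passed as lower. With HNGMT, 3 of 8 cardiomyocyte and 3 of 7 adipocyte markers also passed as lower, the cardiomyocyte markers averaging 9.16 to 9.22 with TGFβ1 and 9.46 to 9.59 with DMSO. In 0TF MEFs the smooth muscle markers averaged 10.29 with TGFβ1 and 9.49 with DMSO in the median culture, and 5 of 8 passed as higher and 1 as lower. Adipocyte markers there averaged 7.67 to 7.76 with TGFβ1 and 8.37 to 8.40 with DMSO. As lower passed 2 of 7 adipocyte and 2 of 10 endothelial markers, and of 8 cardiomyocyte markers 1 passed as higher and 1 as lower. The part of these marker shifts in the falls of the elastic fiber genes was not tested. Of the 7 TGFβ-responsive genes, none passed in MEFs with HNGMT, where limma gave 3 of them an adjusted p under 0.05 as higher and 1 as lower at smaller folds, whereas in 0TF MEFs 4 rose and 2 fell.

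The TGFβ1 effect in CFs minus that in MEFs with HNGMT, at the same TGFβ1 dose, passed for 6 of the 9 genes, all in the positive direction, while 2.68% of all genes passed in that direction, 1.7% in the other and 4.38% in either. After Eln, the differences were 2.03 for Adamtsl2 (SE 0.13, adjusted p = 1.6e-10), 1.75 for Ltbp2 (SE 0.24, adjusted p = 1.8e-05), 1.67 for Mfap4 (SE 0.22, adjusted p = 7.1e-06), 1.34 for Fbn2 (SE 0.07, adjusted p = 5.4e-12) and 1.33 for Fbln5 (SE 0.23, adjusted p = 1.9e-04). They were made in different ways. For Adamtsl2 and Ltbp2 the CF effect was a rise and the MEF effect was small. For Fbn2 and Mfap4 the MEF effect was a fall, and their CF values were so low that a fall there may not have been measurable, so their differences do not show that CFs lacked that response. Setting both aside, 4 genes passed, Eln, Adamtsl2, Ltbp2 and Fbln5. Eln counts among the 6 and the 4, and its opposite changes were known when the set was drawn up, so its pass is a description. For Fbln1, Mfap5 and Emilin1 the differences were 0.39, 0.40 and 0.37 and did not pass. In the same test, 4 of 10 fibroblast markers and 2 of the 7 TGFβ-responsive genes passed, all as positive. Of the endothelial markers, 2 of 10 passed as negative, and each other marker list had at most 1 pass. The part of these shifts in the differences of the elastic fiber genes was not tested. The cell types also differ in animal age, organ of origin and endothelial marker level, and these cannot be told apart.

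SB lowered 4 of the 9 genes in MEFs with HNGMT, Eln, Mfap4, Ltbp2 and Adamtsl2, while 0.431% of all genes fell, 0.391% rose and 0.823% passed in either direction. Adamtsl2, with Lox and Itgb5 below, is on a list that the study drew from these same samples for SB in MEFs and CFs, so these genes are not independent evidence of a direction. Ltbp2 read 9.76, 9.70 and 9.64 with SB, against 11.09, 11.08 and 11.07 with DMSO, a log2 change of -1.38 (SE 0.04, adjusted p = 2.8e-13). Mfap4 read 10.20, 10.18 and 10.10 with SB, against 11.28, 11.21 and 11.19 with DMSO, a log2 change of -1.06 (adjusted p = 1.1e-10). Adamtsl2 read 8.51, 8.41 and 8.40 with SB, against 9.58, 9.58 and 9.57 with DMSO, a log2 change of -1.13 (adjusted p = 1.5e-08). For each of these 3 genes the range within a group was far smaller than the gap between groups. Mfap5 read 9.95, 9.87 and 9.81 with SB, against 10.56, 10.49 and 10.33 with DMSO, and its log2 change of -0.58 (adjusted p = 4.4e-06) was just short of the 1.5-fold threshold, while Ltbp2, Mfap4, Adamtsl2 and Eln lay at -0.74 or beyond. The cultures of all 9 genes did not overlap between SB and DMSO, against 20.8% of all genes. In the same cultures cardiomyocyte markers averaged 9.84 to 10.39 with SB and 9.46 to 9.59 with DMSO, with 4 of 8 passing as higher, and 2 of 7 adipocyte markers passed as higher, and their part in the falls was not tested.

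In 0TF MEFs, SB lowered 4 of the 9 genes, Eln, Fbln5, Mfap4 and Ltbp2, while 1.13% of all genes fell, 1.26% rose and 2.4% passed in either direction. Ltbp2 read 10.01, 10.00 and 10.01 with SB, against 11.15, 11.18 and 11.20 with DMSO, a log2 change of -1.17 (SE 0.04, adjusted p = 1.7e-13). Fbln5 read 12.31, 12.42 and 12.30 with SB, against 13.14, 13.19 and 13.25 with DMSO, a log2 change of -0.85 (adjusted p = 1.0e-10). Mfap4 read 12.07, 12.05 and 11.96 with SB, against 12.65, 12.63 and 12.63 with DMSO, a log2 change of -0.61 (adjusted p = 1.7e-08), close to the threshold. Ltbp2 therefore fell with SB in both MEF sets, where its log2 differences with TGFβ1 were 0.12 and 0.26. Adamtsl2 was low in 0TF MEFs and differed by -0.28 with SB (adjusted p = 0.013, under the fold threshold). The remaining 4 genes differed by -0.31 (Fbn2), -0.13 (Fbln1), 0.18 (Mfap5) and -0.29 (Emilin1), and the cultures of the 9 genes did not overlap, against 30.3% of all genes. In these SB cultures the adipocyte markers averaged 11.36 to 11.44, against 8.37 to 8.40 with DMSO, and 7 of 7 passed as higher, whose part in the falls was not tested.

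In CFs, 5 μM SB lowered Eln and Adamtsl2, 2 of the 9 genes, while 0.196% of all genes fell, 0.0451% rose and 0.241% passed in either direction. Both calls depended on the arrays in the fit: with the SB and DMSO cultures alone, the same changes had adjusted p = 0.089 for Eln and 0.10 for Adamtsl2, and without replicate 3 of DMSO 1 of the 2 passed, with adjusted p = 0.060 for Adamtsl2. Adamtsl2 read 8.47, 8.29 and 7.98 with SB, against 9.69, 9.69 and 9.72 with DMSO, a log2 change of -1.46 (SE 0.11, adjusted p = 4.5e-03). Leaving out replicate 3 of SB gave -1.33 (adjusted p = 5.5e-05). The study reports that quantitative RT-PCR also gave lower Adamtsl2 with SB. Fbln5 read 11.41, 11.36 and 10.33 with SB, against 12.51 in the 3 DMSO cultures, a log2 change of -1.48 that missed the threshold (SE 0.25, adjusted p = 0.078). With all 27 arrays in one limma fit the same Fbln5 change passed (SE 0.16, adjusted p = 5.9e-06). Every Fbln5 culture with SB lay over 1 unit below DMSO, and without replicate 3 the change was -1.13 (adjusted p = 5.2e-05), so 3 of the 9 genes then fell, while 1.89% of all genes passed. Ltbp2 read 9.54, 9.55 and 8.39 with SB, against 9.24, 9.34 and 9.39 with DMSO. Its 3 SB cultures lay on both sides of DMSO, and its log2 change of -0.16 (adjusted p = 0.98) was 0.22 without replicate 3 (adjusted p = 0.055). Mfap5 read 9.38, 9.26 and 11.14 with SB and Mfap4 7.06, 7.04 and 7.95, so that their log2 differences were 0.28 and 0.21 with replicate 3 and -0.33 and -0.09 without it, none of which passed. The cultures of 3 genes, Eln, Adamtsl2 and Fbln5, did not overlap, against 9.44% of all genes. Without replicate 3, 4 of 10 endothelial markers passed as higher and 3 of 10 fibroblast and 2 of 8 smooth muscle markers as lower, while none of these 3 lists held a gene that passed with it, and their part was not tested. The SB values of CFs and MEFs stand at different doses and were not compared.

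The 5 factors lowered 4 or 5 of the 9 genes in MEFs, depending on the addition, and raised 1 or 2. With DMSO, HNGMT against 0TF lowered 5 of the 9 genes, Eln, Mfap4, Mfap5, Fbln5 and Fbn2, and raised Adamtsl2, while 9.08% of all genes passed in either direction (4.51% lower, 4.56% higher). Eln changed by -1.47 (adjusted p = 9.0e-12), Mfap4 by -1.41 and Mfap5 by -1.00, where Mfap5 read 10.56, 10.49 and 10.33 with HNGMT, against 11.47, 11.52 and 11.39 with 0TF. Fbln5 and Fbn2 changed by -0.65 and -0.59, the last at the threshold and lost when any of 3 cultures was left out. Adamtsl2 read 9.58, 9.58 and 9.57 with HNGMT, against 7.93, 8.10 and 7.82 with 0TF, a log2 change of 1.63 (SE 0.07, adjusted p = 4.5e-12). It was the 1 gene of the set that rose with the factors under DMSO. Fbln1 differed by 0.39, Ltbp2 by -0.10 and Emilin1 by -0.02, all under the fold threshold.

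**Figure D4:**
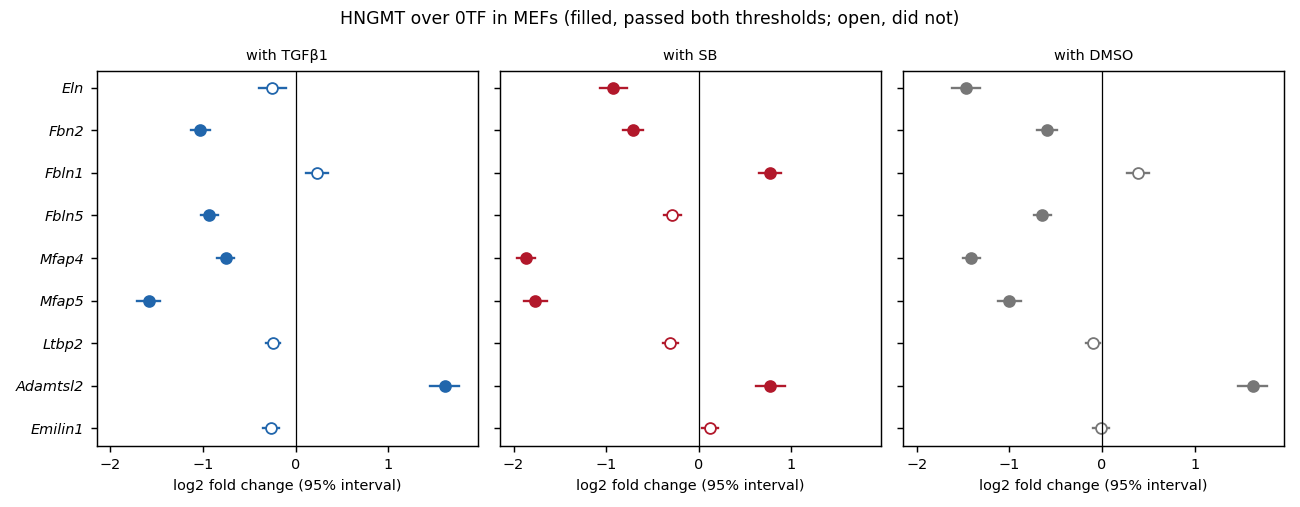
Log2 fold change of each gene in HNGMT over 0TF MEFs with TGFβ1, SB and DMSO, on the same horizontal scale; lines are 95% confidence intervals and filled symbols passed both thresholds. Mfap5 lies at -1.59, -1.76 and -1.00, and Adamtsl2 is positive in all 3 panels (1.61, 0.77 and 1.63).

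With SB in both sets, HNGMT lowered Mfap4 (-1.87), Mfap5 (-1.76), Eln (-0.92) and Fbn2 (-0.71) and raised Adamtsl2 (0.77) and Fbln1 (0.76), 6 of 9 genes, while 9.85% of all genes passed (4.81% lower, 5.04% higher). With TGFβ1 in both sets, HNGMT lowered Mfap5 (-1.59), Fbn2 (-1.03), Fbln5 (-0.93) and Mfap4 (-0.76) and raised Adamtsl2 (1.61), 5 of 9 genes, while 10.3% of all genes passed (3.88% lower, 6.37% higher). The Eln difference there was -0.25, under the fold threshold, and Eln read at most 8.45 with HNGMT and at most 8.69 with 0TF. The cultures of 8 genes did not overlap between HNGMT and 0TF with DMSO, and those of 9 did not with SB or with TGFβ1, against 46.7%, 52% and 52.4% of all genes. Fibroblast markers were lower with HNGMT too, with 3 of 10 passing under DMSO and 4 of 10 under SB and under TGFβ1. Cardiomyocyte markers were higher with HNGMT, with 5 of 8 passing under DMSO, 7 of 8 under SB and 5 of 8 under TGFβ1. Smooth muscle markers passed as higher for 5 of 8 under DMSO and 5 of 8 under SB, while under TGFβ1 2 of 8 were higher and 2 lower. Adipocyte markers averaged 8.49 to 8.62 with HNGMT and SB and 11.36 to 11.44 with 0TF and SB, and 7 of 7 passed as lower. The part of these markers was not tested. Of the delivered factors, Hand2 was 2.48 to 2.77 higher with HNGMT on the log2 scale, Gata4 was 0.35 to 0.40 higher without passing the fold threshold, Nkx2-5 did not pass, Mef2c differed by -0.57 with DMSO (adjusted p = 1.5e-06), -0.47 with SB and -0.03 with TGFβ1, all under the fold threshold, and Tbx5 passed as lower with DMSO and SB (-0.94 and -1.01). Whether these probe sets read the delivered sequences was not tested. For its own check of transgene RNA in MEFs, the study lists a mouse assay for Hand2 and human assays for the other factors. It reports no difference in transgene expression between DMSO and SB.

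Whether the factors changed the response to an addition was tested as a difference of effects in MEFs. The TGFβ1 effect differed between HNGMT and 0TF for 3 of the 9 genes, while 7.45% of all genes passed (4.68% with a positive and 2.77% with a negative difference). It was less negative with HNGMT for Eln, by 1.22 (SE 0.10, adjusted p = 3.7e-08), and for Mfap4, by 0.65 (SE 0.06, adjusted p = 3.6e-07), and it was lower with HNGMT for Mfap5, by a difference of -0.59 (SE 0.09, adjusted p = 3.8e-05) that lay at the threshold. Eln averaged 10.70 with HNGMT and 12.17 with 0TF under DMSO, and 8.38 and 8.63 under TGFβ1. The part of the lower DMSO level with HNGMT in its smaller fall was not tested. The Mfap5 call was lost when any of 6 cultures was left out. With all 27 arrays in one fit it had adjusted p = 0.33, at the same difference of -0.59 but an SE of 0.385. The spread of that fit included replicate 3 of CF SB, which read 11.14 for Mfap5 against 9.38 and 9.26 in its group. The SB effect differed for 2 of the 9 genes, while 1.96% of all genes passed (0.893% with a positive and 1.06% with a negative difference). Its difference was -0.85 for Adamtsl2 (SE 0.10, adjusted p = 2.4e-05), whose DMSO level was the higher in HNGMT cultures, and -0.77 for Mfap5 (SE 0.09, adjusted p = 9.3e-06). In 0TF MEFs Adamtsl2 read 7.82 to 8.10 with DMSO, near the MEF array medians, so a fall there may not have been measurable.

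Several of the 9 genes had differences under the fold threshold that were larger than the spread between cultures. By the adjusted p-value alone, 9 of 9 genes passed with SB in MEFs with HNGMT, against 7.38% of all genes, and 8 of 9 in 0TF MEFs, against 16.6%. Most of these small SB differences were negative, Fbln1 with HNGMT (0.25) and Mfap5 in 0TF MEFs (0.18) being the positive ones. With TGFβ1, 7 of 9 genes passed by that rule in each MEF set, against 35.8% of all genes with HNGMT and 46.9% in 0TF MEFs, and 4 of 9 passed in CFs, against 7.88%. With SB in CFs, 2 of 9 passed, against 0.266%. For HNGMT over 0TF it was 8 of 9 genes with DMSO, against 40.5% of all genes, and 9 of 9 with SB and with TGFβ1, against 41.8% and 44%. For the differences of effects it was 7 of 9 for TGFβ1 and for SB between HNGMT and 0TF, against 31.3% and 8.43%, and 8 of 9 for TGFβ1 between CFs and MEFs, against 15.9%. Eln, whose opposite changes with TGFβ1 were known when the set was drawn up, counts in each of these TGFβ1 results.

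Other genes of elastic fiber assembly were read from 5 lists, and the shares of all genes given above apply to them. With TGFβ1 in CFs, 4 of 5 measured crosslinking enzymes rose and none fell, Loxl4 by 1.32, Lox by 1.08, Tgm2 by 0.74 and Loxl3 by 0.61 on the log2 scale. The lysyl oxidases crosslink elastin and collagen, and Tgm2 is a transglutaminase. Of 15 other microfibril, fibulin and emilin genes, 3 rose and 2 fell. The risers Ltbp4 (1.39) and Ltbp1 (0.96) encode binding proteins of latent TGFβ, the third riser was Mfap3l (0.64), and those that fell were Efemp1 (-1.63), which encodes fibulin-3, and Hmcn1 (-1.60), which encodes hemicentin-1. Of 10 ADAMTS-like and ADAMTS genes, 1 rose, Adamts6 (0.87). Of 9 elastin-degrading proteases 2 rose, Mmp9 (2.20) and Mmp2 (0.40). Of 8 integrin chains that bind RGD sequences 3 rose, Itgb5 (1.29), Itgb3 (0.88) and Itga5 (0.80), and Itgb8 fell (-0.64). Without replicate 3 of SB in the spread, 5 of 5 crosslinking enzymes rose, 3 of the 15 rose and 3 fell, 2 of the 10 rose and 1 fell, 3 of the 9 proteases rose, and 3 of the 8 integrin chains rose and 2 fell, with Mmrn2 (-0.86), Itga8 (-1.05) and Mmp14 (0.55) the farthest of those added.

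In MEFs with HNGMT and TGFβ1, 1 of the 15 other microfibril genes rose, Mfap3l (1.07), and 4 fell, Hmcn1 (-2.14), Efemp1 (-1.24), Mfap2 (-0.88) and Emilin2 (-0.66). Of the 10 ADAMTS-like and ADAMTS genes none rose and 2 fell, Adamtsl1 (-1.00) and Adamtsl3 (-0.66). Of the 5 crosslinking enzymes 2 rose, Tgm2 (0.98) and Loxl4 (0.78), and of the proteases Mmp9 rose (1.67). Of the integrin chains Itgb8 fell (-1.12). In 0TF MEFs with TGFβ1, 1 of the 15 rose, Mfap3l (1.43), and 5 fell, with Hmcn1 (-2.14), Fbln7 (-1.75) and Mfap2 (-1.41) the farthest, Mfap2 encoding a microfibril-associated glycoprotein. Of the 10 ADAMTS-like and ADAMTS genes 5 fell there, led by Adamtsl4 (-2.06), and Adamts6 rose (0.77). Of the crosslinking enzymes Tgm2 (1.26) and Loxl3 (0.68) rose, of the proteases Mmp9 (0.68) and Mmp12 (0.61) rose, and of the integrin chains Itgb1 rose (0.59) and Itga8 fell (-1.33).

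Few of these genes passed with SB. In MEFs with HNGMT it lowered Lox (-0.77) and Itgb5 (-0.64), and none of the other 3 lists held a gene that passed. In 0TF MEFs it raised Fbln7 (1.66) and Emilin2 (0.95) and lowered Adamts6 (-1.29), which encodes a secreted protease, and no crosslinking enzyme, protease of the elastin list or integrin chain passed. In CFs no gene of the 5 lists passed with SB when replicate 3 was kept, where Lox differed by -0.87 (adjusted p = 0.31) and Itgb5 by -0.43 (adjusted p = 0.86). Without that culture 8 genes passed, 7 as lower, led by Lox (-1.19, adjusted p = 1.2e-04) and Itgb5 (-0.70, adjusted p = 1.5e-04), and Mmrn2 as higher (0.56). HNGMT against 0TF under DMSO lowered 7 of the 10 ADAMTS-like and ADAMTS genes, led by Adamts6 (-1.52) and Adamtsl1 (-1.36), and 4 of the 15 other microfibril genes, Fbln7 (-2.09), Hmcn1 (-1.72), Ltbp4 (-0.99) and Mfap2 (-0.95). It raised Tgm2 (2.17), Itga8 (1.84) and Loxl4 and lowered Lox (-0.62), Mmp9 (-2.48) and Itgb3 (-0.62).

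The 5 genes whose pattern over the 27 cultures was most like that of Eln, after the mean of each cell type was removed, were Gjc1 (Pearson r 0.93), Eef2k (0.92), Sema3c (0.92), Glis2 (0.91) and Kirrel3 (0.91). The 27 points share 9 treatment groups, so these values describe the order of groups. Sema3c, which encodes a secreted semaphorin, had log2 changes with TGFβ1 of 0.82 in CFs, -0.68 in MEFs with HNGMT and -0.83 in 0TF MEFs. Kirrel3, which encodes a cell adhesion protein, had 0.32 in CFs, just under the threshold, -0.91 in MEFs with HNGMT and -1.01 in 0TF MEFs. The TGFβ1 changes of both were smaller than those of Eln in each background. With SB, Sema3c differed by -0.67 in CFs (adjusted p = 0.075), -0.10 in MEFs with HNGMT and 0.30 in 0TF MEFs (adjusted p = 2.5e-05, under the fold threshold), the last opposite in sign to Eln. Kirrel3 had the sign of Eln with SB in each background. It fell by 0.43 in CFs (adjusted p = 7.6e-03) and differed by -0.10 in MEFs with HNGMT and -0.22 in 0TF MEFs, both under the fold threshold.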

How the data were processed

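RNA of 27 mouse cultures was hybridized to Affymetrix chips, and 3 arrays per group limit the precision. The deposited log2 values were made by the authors, who list PartekGS and version 5.0 of the Affymetrix Microarray Suite in their methods and MAS5 in the labels. Their background correction and normalization are not given in the sources used here, and the values were used as deposited.

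Of 35556 probe sets, 21789 had 1 gene symbol in the platform annotation, 1621 had several and 12146 had none. The 999 genes with several probe sets were represented by the brightest, giving 19938 genes. Groups came from the labels and were tested in R 4.3.3 with limma 3.58.1 (lmFit, eBayes, two-sided, Benjamini-Hochberg over 19938 genes). The MEF fit used 18 arrays (12 residual degrees of freedom), the CF fit 9 (6), and the difference between cell types all 27 (18), with 12 comparisons in all. Differences of effects were called at 1.5-fold. The scripts were tested on simulated data. Figures were drawn with matplotlib 3.10.9.

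The elastic fiber genes and the gene lists were chosen with earlier results of these data known. All members were named, and of each further list up to 3 called genes with the smallest p per comparison, while further called genes were named after their values were seen. Promoters came from RefSeq by the Entrez gene number of each symbol. The alternatives were a replicate block, the mean of probe sets, quantile normalization, a filter on genes under the 40th percentile, an intensity trend with robust variance, no fold threshold, other sets of arrays in the fit, and leaving out each culture.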

Additional observations from a re-analysis of the deposited data

Results flagged for a closer look

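Results are listed here where a test of the difference between groups found that an effect differed between the cell types or between HNGMT and 0TF. The TGFβ1 effect on Eln was 1.22 less negative on the log2 scale in HNGMT than in 0TF MEFs (adjusted p = 3.7e-08), and that on Mfap4 was 0.65 less negative (adjusted p = 3.6e-07). The Eln level under DMSO was 10.70 in HNGMT and 12.17 in 0TF MEFs, and under TGFβ1 it was 8.38 and 8.63. The part of the lower DMSO level in the smaller Eln fall was not tested. The TGFβ1 effect on Mfap5 differed by -0.59 (adjusted p = 3.8e-05), with changes of -0.09 in HNGMT and 0.50 in 0TF MEFs, neither of which passed by itself.

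The SB effect in HNGMT minus that in 0TF MEFs was -0.77 for Mfap5 (adjusted p = 9.3e-06) and -0.85 for Adamtsl2 (adjusted p = 2.4e-05). The Adamtsl2 level under DMSO was 9.57 in HNGMT and 7.95 in 0TF MEFs. The level in 0TF MEFs lay near the MEF array medians (7.83 to 7.91), so a fall there may not have been measurable.

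The TGFβ1 effect in CFs minus that in MEFs, both with HNGMT, was 5.19 for Eln, 2.03 for Adamtsl2, 1.75 for Ltbp2, 1.67 for Mfap4, 1.34 for Fbn2 and 1.33 for Fbln5. The adjusted p-values ran up to 1.9e-04, that of Fbln5. The gene set was drawn up with the opposite Eln changes known, so its value is a description. Fbn2 and Mfap4 read so low in CFs that a fall there may not have been measurable. With replicate 3 of CF SB left out of the spread, 6 genes passed again, and the Fbln5 and Ltbp2 differences had adjusted p = 1.1e-13 and 2.2e-16.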

How the results depend on the processing

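No called change reversed its direction in the alternatives run, and 15 changes that had not passed changed sign. Of these, 11 were under 0.05 in size both ways, and the other 4 were changes with SB in CFs without replicate 3 of SB: Mfap5 (0.28 with it, -0.33 without), Mfap4 (0.21, -0.09), Ltbp2 (-0.16, 0.22) and Fbln1 (0.06, -0.03). Without a fold threshold, more genes passed for SB in MEFs with HNGMT (9) and in 0TF MEFs (8), for HNGMT against 0TF with TGFβ1 (9), and for the differences between HNGMT and 0TF in the TGFβ1 effect (7) and the SB effect (7). With all 27 arrays in one fit, 1 gene passed for the difference in the SB effect, since Mfap5 had adjusted p = 0.43. The Mfap5 difference in the TGFβ1 effect had adjusted p = 0.33 there. Both Mfap5 differences kept their size, and the spread of that fit included replicate 3 of CF SB. The same limma fit gave 3 genes for SB in CFs, Fbln5 among them (adjusted p = 5.9e-06). With only the groups compared, 0 genes passed for SB in CFs by limma, where Eln had adjusted p = 0.089 and Adamtsl2 0.10 at the same log2 changes (-1.32 and -1.46). For TGFβ1 in CFs 5 genes passed in this way, Fbln5 among them (adjusted p = 9.2e-04). Under quantile normalization Mfap4 with SB in 0TF MEFs (-0.58) and the Mfap5 difference in the TGFβ1 effect (-0.54) fell below 1.5-fold.

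Leaving out each culture in turn gave 1 to 3 genes for SB in CFs, with 1 when replicate 3 of CF DMSO was left out (Adamtsl2 adjusted p = 0.060) and 3 without replicate 3 of SB. It gave 4 for TGFβ1 in CFs whichever DMSO or TGFβ1 culture was left out, and 6 with replicate 3 of SB out of the spread. Apart from that one, only cultures of the compared groups were left out. The counts were 4 to 5 and 3 to 4 for SB in MEFs with HNGMT and in 0TF MEFs. They were 5 to 6 for HNGMT against 0TF with DMSO, 2 to 3 for each difference between HNGMT and 0TF, and as given above in the other 5 comparisons. Removing replicate 3 of CF SB from the spread behind the TGFβ1 result in CFs, and from the further gene and marker lists in CFs, was chosen after seeing the data.

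Replicate numbers are shared by the groups, but the numbers were not taken to pair cultures. Correlations of deviations between same-numbered cultures ran from -0.45 to 0.59 in MEFs (median -0.02) and from -0.25 to 0.65 in CFs (median 0.09, against -0.07 between other cultures), and 7 of 18 MEF and 5 of 9 CF arrays correlated best with their own number. With the replicate number as a block, 4 genes passed for TGFβ1 and 2 for SB in CFs, 5 and 4 in MEFs with HNGMT, 5 and 4 in 0TF MEFs, 6, 6 and 5 for HNGMT against 0TF with DMSO, SB and TGFβ1, and 3, 2 and 6 for the differences of effects, the same counts as without the block.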
